A study of Mus musculus with 6 samples.

Results

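Serotonin constricts pulmonary arteries, and the genes described here are those through which a cell senses, takes up and breaks down serotonin. They are 7 of the 21785 genes in the deposited table, matched by Ensembl gene ID through GENCODE M21 to the symbols Htr1b, Htr1d, Htr2a, Htr2b, Htr7, Slc6a4 and Maoa. The genes were chosen by symbol, with the normalized counts of the same stimulated and control libraries already known, including the rises of Htr1b and Htr2b. Their levels and changes are therefore given as a description, without p-values.

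Sequencing covered smooth muscle cells of mouse pulmonary arteries (PASMCs), grown out of iron-filled lung vessels of C57BL/6 mice and kept for 48 h without medium supplements. In the stimulated group, 3 samples received BMP9 at 1 ng/mL together with BMP10 at 5 ng/mL for 6 h, in the supplement-free medium. The control group of 3 samples received neither ligand and shared the strain, the isolation and the 48 h without supplements. BMP9 and BMP10 are circulating bone morphogenetic proteins, and because they were given together their separate effects cannot be told apart. Whether samples of a group came from separate animals or cultures is not stated in the labels, so tests measure only the spread between these samples, which may be technical.

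Serotonin receptors differ in the G protein they use. Receptors of the HTR1 class couple to Gi and lower cyclic AMP, those of the HTR2 class couple to Gq and raise calcium through phospholipase C, and HTR7 couples to Gs and raises cyclic AMP. The transporter encoded by Slc6a4 carries serotonin into the cell, and monoamine oxidase A, encoded by Maoa, oxidises it at the mitochondrial outer membrane. In the lung circulation serotonin is known both as a constrictor and as a growth signal for smooth muscle cells.

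The values are normalized read counts, which summed to between 30786695 and 31903795 per stimulated library and between 27295973 and 28283597 per control library. The stimulation registered in known BMP target genes: all 6 genes listed for this check passed the test, with Id1 at 2220 ± 461 in stimulated and 551 ± 129 in control samples (SD, n = 3 each) and Smad6 at 3344 ± 1351 and 231.7 ± 54.9. All 10 smooth muscle markers were detected, and their summed level was 106032 to 213966 in stimulated and 46889 to 69366 in control libraries. Of these 10 genes, 6 passed the test as higher and none as lower, beside 8.61% and 4.75% of all genes. Genes used as markers of other cell types were also detected. Summed fibroblast markers (8 of 8 detected), most of them reads of the collagen genes Col1a1 and Col1a2, ranged from 254506 to 460700 in stimulated and from 294058 to 403309 in control libraries. In every library that sum exceeded the sum of the smooth muscle markers, and of the 8 genes only Pdgfra passed the test, as lower. Sums over different genes do not give the proportions of cell types, and which cells made the collagen reads was not tested. Summed macrophage markers (10 of 10 detected) ranged from 147137 to 224391 in stimulated and from 100031 to 173458 in control libraries. That sum too exceeded the smooth muscle sum in every library but stimulated replicate 2 (147137 against 213966). Summed endothelial markers (12 of 12) ranged from 9721 to 43726 in stimulated and from 12354 to 46574 in control libraries. Replicate 2 stood apart in both groups: its endothelial markers were at a median of 3.66 times the mean of replicates 1 and 3 in stimulated and 3.79 times in control libraries. Lung epithelial markers were also found (10 of 10), at summed levels of 3297 to 37107 in stimulated and 8238 to 35874 in control libraries. Markers of cells that make or store serotonin were scarce for neuroendocrine cells (3 of 6 measured, summing to 26 to 43 in stimulated and 48 to 63 in control libraries). Of 7 mast cell markers only Kit and Cpa3 were measured, and of the platelet markers Pf4 (882 to 1488 in stimulated and 688 to 1193 in control libraries) made up most of the sum. Which cells made the Pf4 reads was not tested. In such cultures fewer cells of a type and less RNA per cell cannot be told apart.

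All 7 genes averaged at least 1 normalized count and so entered the fit, Htr7 through its stimulated libraries. In the limma fit over 21743 genes, 3 of the 7 passed the threshold of an adjusted p of 0.05, namely Htr1b, Htr2a and Htr2b, all higher in stimulated samples. Over all genes 13.4% passed, 8.61% as higher and 4.75% as lower. The 3 stimulated values lay above the 3 control values for 4 of the 7 genes, Htr7 being the fourth, and the groups did not overlap in either direction for 33.2% of all genes. Since this comparison was known when the genes were chosen, nothing is read from these counts. Among all passing genes 64.5% were higher with the values as deposited, 51.2% after upper-quartile scaling and 33.4% with equal library totals, and these scalings put the median log2 change of all genes at -0.035, -0.112 and -0.202. The direction of each of the 7 genes was the same under every scaling tried.

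**Figure D1:**
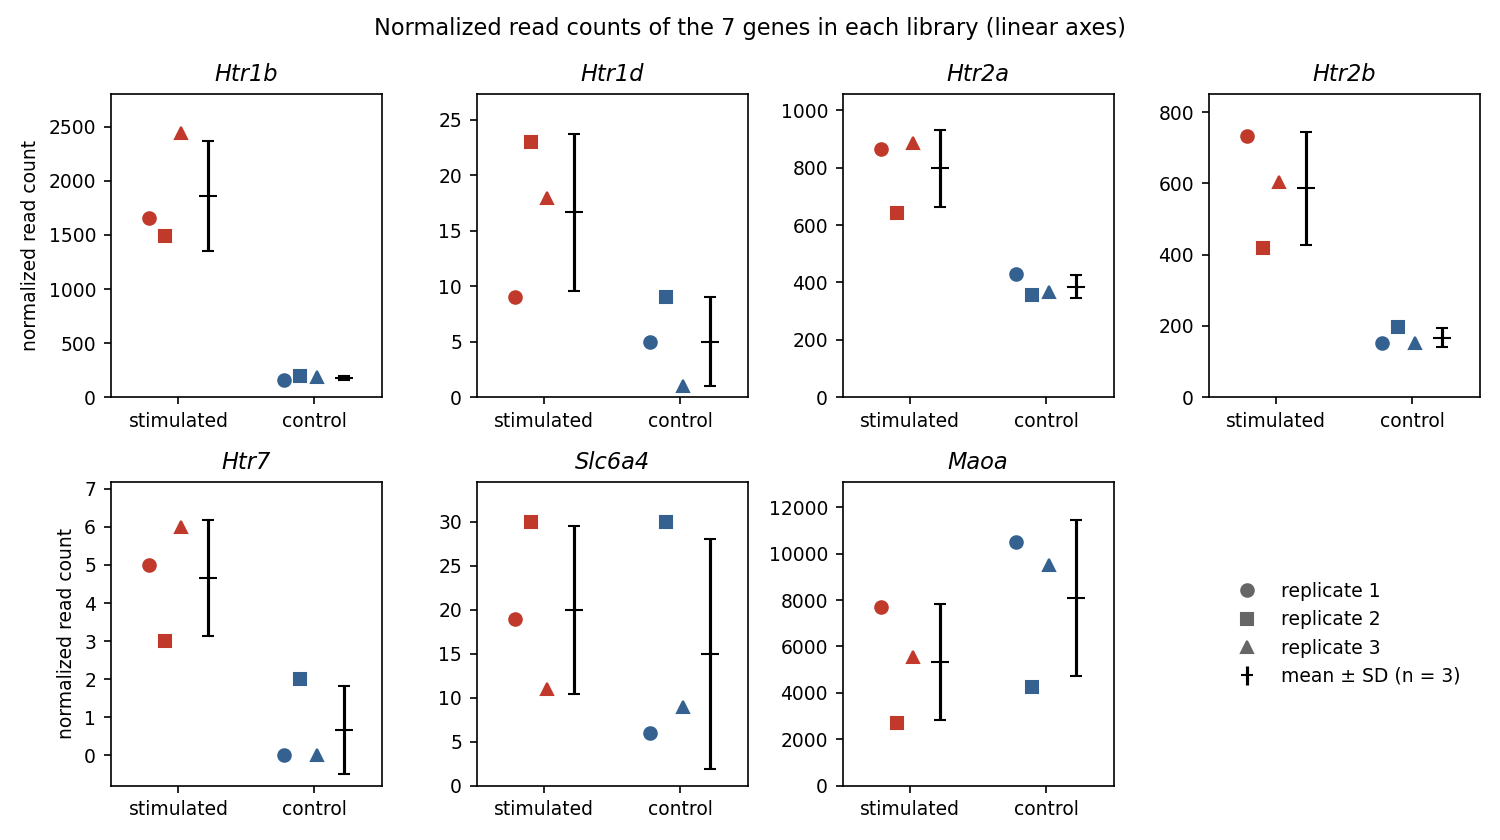
Normalized read counts of the 7 genes on linear axes, 1 panel a gene, with stimulated libraries (red) left of control libraries (blue), marker shapes for the replicate number, and black marks for the mean ± SD (n = 3). Htr1b, Htr2a and Htr2b separate fully, while Htr1d, Slc6a4 and Maoa overlap. Replicate 2 is the lowest library of each group for Maoa and the highest for Slc6a4.

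The promoter stretches of the 3 receptor genes that rose are shown because these genes moved in the same direction. Each run covers bases 250 to 41 before the RefSeq start (build GRCm38.p6), read 5′ to 3′ on the gene's strand. The runs lie at chr9:81633873-81634082 for Htr1b (minus strand), chr1:86112021-86112230 for Htr2b (minus strand) and chr14:74640624-74640833 for Htr2a (plus strand). Capitals mark matches, on either strand, to GGCGCC or CAGAC (motifs bound by SMAD proteins), TGANTCA (N being any base) or TGACGTCA (a cyclic AMP response element). TGANTCA is a loose form of the AP-1 site, so a match to it need not be one.
Htr1b: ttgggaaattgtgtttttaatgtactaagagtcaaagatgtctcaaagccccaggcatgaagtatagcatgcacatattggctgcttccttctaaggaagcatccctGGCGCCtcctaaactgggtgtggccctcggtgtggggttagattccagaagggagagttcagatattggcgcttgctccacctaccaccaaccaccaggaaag
Htr2b: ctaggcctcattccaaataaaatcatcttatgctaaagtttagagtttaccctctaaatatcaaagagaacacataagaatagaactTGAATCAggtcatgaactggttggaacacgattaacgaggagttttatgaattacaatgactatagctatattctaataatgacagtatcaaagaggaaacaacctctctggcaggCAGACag
Htr2a: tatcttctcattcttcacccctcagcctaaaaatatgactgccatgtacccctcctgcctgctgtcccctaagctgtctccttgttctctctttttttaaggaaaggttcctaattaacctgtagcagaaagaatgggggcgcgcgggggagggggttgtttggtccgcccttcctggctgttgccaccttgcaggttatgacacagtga

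The Htr1b stretch held 1 GGCGCC match, 143 to 138 bases before the start, a motif found in 7.66% of 32851 RefSeq promoter stretches of the same length. In Htr2b there was 1 match to TGANTCA (5.84% of stretches), at 163 to 157 bases, and 1 to CAGAC (37.2%), at 47 to 43 bases. No matches overlapped each other. The Htr2a stretch held none of these letters, nor did that of Maoa. Genes that did not pass held matches too: GGCGCC and CAGAC in Htr7, and CAGAC in Slc6a4 and in 1 of the 2 stretches of Htr1d. Of these, Htr7 and Htr1d rested on few reads, with log2 changes of 1.94 and 1.75. Their failure to pass does not show that they were unchanged. Whether the matches bear on the changes was not tested. TGACGTCA, present in 0.998% of stretches, was in none of the 8 stretches that RefSeq lists for the 7 genes. A match is a run of letters and does not show that a factor binds.

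Htr1b had the largest change of the 7 genes. It encodes a Gi-coupled receptor that mediates serotonin constriction in human pulmonary arteries, and it lies at chr9:81628291-81633828 on the minus strand (ENSMUSG00000049511). It had 1656, 1487 and 2439 normalized counts in stimulated replicates 1, 2 and 3, against 158, 197 and 184 in control replicates 1, 2 and 3. The lowest stimulated library was thus far above the highest control library, and the spread among stimulated libraries exceeded that among controls. The means were 1861 ± 508 and 179.7 ± 19.9 (SD, n = 3 each), a 10.4-fold difference, and the change on the log2(value + 1) scale was 3.34 ± 0.20 (SE). This was the 21st largest rise among the genes tested (rank 21 of 21743). By replicate number the log2 changes were 3.38, 2.91 and 3.72. Of the exonic bases of Htr1b, 18.0% are shared with exons of D430036J16Rik, which is transcribed the other way. That gene was at only 8 to 36 in stimulated and 9 to 20 in control libraries.

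Htr1d encodes the second Gi-coupled receptor of the set (chr4:136423524-136444398, ENSMUSG00000070687). Its values were 9, 23 and 18 in stimulated replicates 1 to 3 and 5, 9 and 1 in control replicates 1 to 3. The groups met at 9, and every value was low. From the steps in the deposited values, about 7, 20 and 31 reads lay behind the stimulated values, and about 5 and 1 behind control replicates 1 and 3. The log2 change was 1.75 ± 0.67 and did not pass. It spanned 0.83 to 2.26 over the alternatives, the lowest with a pseudocount of 10.

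Htr2b encodes a Gq-coupled receptor known from studies of pulmonary hypertension in mice and lies at chr1:86099026-86111970 on the minus strand (ENSMUSG00000026228). Stimulated replicates 1 to 3 had 734, 419 and 605 normalized counts, against 151, 198 and 153 in control replicates 1 to 3. Replicate 2 was the lowest stimulated library and the highest control library, and the groups did not overlap. The means were 586 ± 158 in stimulated and 167.3 ± 26.6 in control samples (SD, n = 3 each), 3.50-fold apart. The log2 change was 1.78 ± 0.23, with 2.27, 1.08 and 1.98 in pairs 1, 2 and 3, so the smallest difference lay in pair 2. In stimulated libraries the order of Htr2b was also that of the summed macrophage markers, which were 224391, 147137 and 197284 in replicates 1, 2 and 3. In control replicates 1, 2 and 3 those markers summed to 173458, 163153 and 100031, and Htr2b did not follow that order. The part of macrophage RNA in the level of Htr2b was not tested.

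Htr2b lies within the gene Psmd1, which runs on the opposite strand, and 11.8% of the Htr2b exon sequence lies under Psmd1 exons. Psmd1, a proteasome subunit gene, had 5723 to 7169 normalized counts in stimulated and 4694 to 5403 in control libraries. Its log2 change was 0.32 ± 0.12 (limma adjusted p = 0.133, and 0.0113 with the replicate block). Libraries were made with a stranded kit, but how strand was handled in counting is not given in the sources used here. The levels of Htr1b and Htr2b therefore carry an uncertainty that cannot be resolved from these values.

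Htr2a, the other Gq-coupled receptor gene (chr14:74640840-74709494, ENSMUSG00000034997), encodes a receptor known to mediate serotonin constriction in many arteries. It had 865, 642 and 886 normalized counts in stimulated replicates 1 to 3, against 430, 357 and 367 in control replicates 1 to 3. The lowest stimulated library exceeded the highest control library, and no annotated gene overlaps Htr2a. Means were 797.7 ± 135 and 384.7 ± 39.6 (SD, n = 3 each), a 2.07-fold difference. The log2 change of 1.04 ± 0.16 was close in the 3 pairs, at 1.01, 0.84 and 1.27. Htr1b, Htr2a and Htr2b each stayed past the threshold when any single library was left out. The genes were chosen with these values known, so this describes the fit and adds no separate evidence.

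Htr7, the Gs-coupled receptor gene (chr19:35958734-36057507, ENSMUSG00000024798), was at the edge of detection. It had 5, 3 and 6 normalized counts in stimulated replicates 1 to 3, against 0, 2 and 0 in control replicates 1 to 3. These groups did not overlap, yet about 4, 3 and 10 reads lay behind the stimulated values. A count of 0 allows up to 3 reads, which corresponds to 3.22 and 3.10 normalized counts in control replicates 1 and 3 and covers counting error only. Stimulated replicate 2 lies within that range. The log2 change was 1.94 ± 0.61 and did not pass. It depended on the pseudocount, from 0.46 with a pseudocount of 10 to 4.06 with one of 0.1. Htr7 passed the threshold without control replicate 2 (log2 change 2.46) and without both replicate 2 libraries (2.70).

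Levels of different genes were compared as normalized counts per kilobase (kb) of annotated exon. In stimulated samples Htr1b led the receptors with 394 ± 108 per kb, followed by Htr2b with 275 ± 74.3, Htr2a with 142.3 ± 24.1, Htr1d with 5.21 ± 2.22 and Htr7 with 1.37 ± 0.45 (SD, n = 3). In control samples the order was Htr2b with 78.5 ± 12.5 per kb, Htr2a with 68.6 ± 7.06, Htr1b with 38.0 ± 4.20, Htr1d with 1.56 ± 1.25 and Htr7 with 0.196 ± 0.340. The ranges of Htr1b and Htr2b overlapped in stimulated samples, as did those of Htr2b and Htr2a, and of Htr1d and Htr7, in control samples. All other neighbours in both orders were separate.

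Summed over the 5 receptors, the level was 854, 634 and 966 per kb in stimulated replicates 1 to 3 and 182.6, 201.7 and 176.5 per kb in control replicates 1 to 3. The ratio of the group means was 4.37. Htr1b made up 48.1% ± 6.35 of the summed level in stimulated and 20.4% ± 1.89 in control samples (SD, n = 3 each). The share of Htr2a was 17.5% ± 0.987 in stimulated samples, against 36.9% ± 5.22 in control samples, although its own level was higher after stimulation. Htr2b held 33.6% ± 5.91 and 41.9% ± 3.77, and its values overlapped between the groups. Receptors of the HTR2 class therefore held the larger part of the sum in every control library. Htr1b was the largest single entry in every stimulated library, with 41.07%, 49.66% and 53.47% in replicates 1, 2 and 3. Htr2b held 40.35%, 31.01% and 29.4% there, and Htr2a 18.08%, 18.06% and 16.36%. The HTR2 class thus still held the larger part in stimulated replicate 1.

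**Figure D2:**
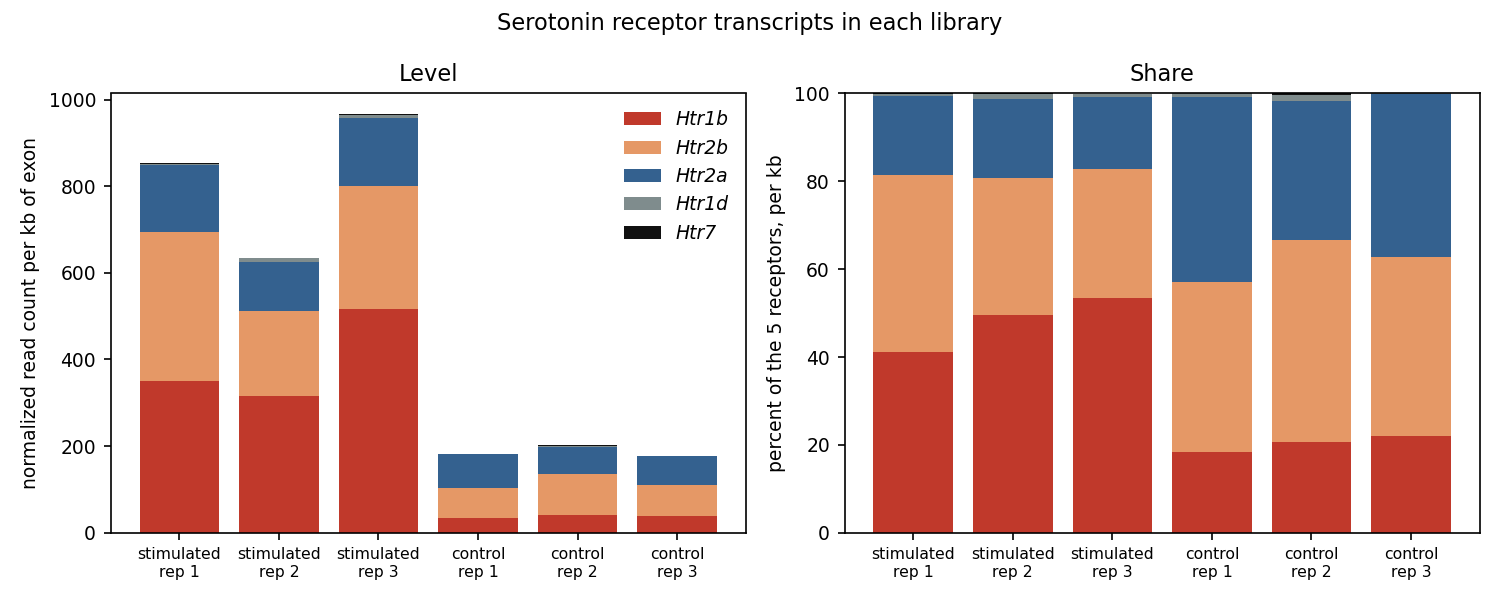
Serotonin receptor transcripts in each library as normalized read counts per kb of exon (left, stacked) and as percent of the 5 receptors (right), with the 3 stimulated libraries left of the 3 control libraries. The summed level is 634 or more in stimulated and 201.7 or less in control libraries, and the Htr1b share is 41.1% or more against 22.1% or less.

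Slc6a4, the serotonin transporter gene (chr11:76998603-77032340, ENSMUSG00000020838), was low in both groups. It had 19, 30 and 11 normalized counts in stimulated replicates 1 to 3, against 6, 30 and 9 in control replicates 1 to 3. Replicate 2 was the highest library of each group, with the same value of 30 in both, and the groups overlapped. Per kb this is 4.41 ± 2.11 in stimulated and 3.31 ± 2.89 in control samples (SD, n = 3 each), which overlapped with Htr1d in both groups. The log2 change of 0.59 ± 0.63 did not pass. In pairs 1, 2 and 3 it was 1.51, 0.00 and 0.26. Summed endothelial markers were highest in the same libraries, as were the summed lung epithelial, mesothelial, mast cell, fibroblast and smooth muscle markers. The part of any of these cells in the Slc6a4 level was not tested.

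Maoa was the most abundant of the 7 genes and the one with a lower mean after stimulation. It lies at chrX:16619698-16687818 (ENSMUSG00000025037) and had 7691, 2711 and 5543 normalized counts in stimulated replicates 1 to 3, against 10503, 4248 and 9531 in control replicates 1 to 3. Each stimulated library was below the control library of the same number, but the groups overlapped because replicate 2 was low in both. Replicate 2 was at 0.410 times the mean of replicates 1 and 3 in stimulated and at 0.424 times in control libraries. Its summed endothelial markers were the highest of each group, as were its lung epithelial, mesothelial, mast cell, fibroblast and smooth muscle sums. What part the makeup of those cultures had in the Maoa level was not tested.

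The Maoa means were 5315 ± 2498 in stimulated and 8094 ± 3366 in control samples (SD, n = 3 each), a ratio of 0.657. Its log2 change of -0.63 ± 0.46 did not pass. In the pairs it was -0.45, -0.65 and -0.78. With the replicate number as a block the same change had an SE of 0.08 and passed, together with Htr1b, Htr2a and Htr2b. In that paired fit 26.8% of all genes passed. Without both replicate 2 libraries, and with no block, the change was -0.62 and did not pass. Per kb, Maoa was at 1275 ± 599 in stimulated and 1942 ± 808 in control samples, above every serotonin receptor in each library.

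**Figure D3:**
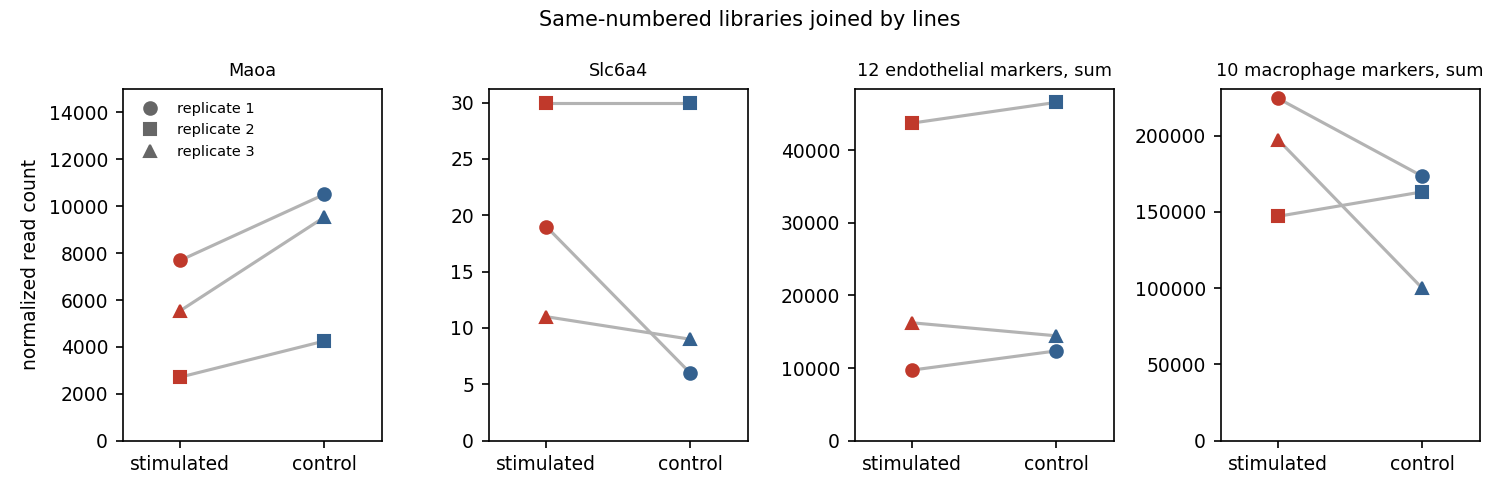
Normalized read counts of Maoa and Slc6a4 and the summed counts of 12 endothelial and 10 macrophage markers, stimulated (red, left) and control (blue, right), with same-numbered libraries joined. Every Maoa line is lower at its stimulated end, and replicate 2 is lowest for Maoa and highest for Slc6a4 and the endothelial markers in both groups.

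The rest of the serotonin system was set beside these genes in 5 lists chosen by function. Of their 65 genes in the table, 6 rose and 2 fell by limma (12.3%), near the 13.4% over all genes. With equal library totals 3 rose and 9 fell (18.8% of the 64 that could be fitted), beside 15.7% over all genes in the same fit. With the replicate block 14 rose and 11 fell (38.5%), beside 26.8% over all genes. With both, 10 rose and 18 fell (43.8% of 64), beside 32%.

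Of 9 other serotonin receptor genes, 3 were in the table and none passed. Htr2c, Htr6 and Htr4 averaged 4.33 ± 4.16, 6.33 ± 3.51 and 1.00 ± 1.73 in stimulated samples, against 1.67 ± 0.577, 5.33 ± 1.53 and 1.00 ± 1.00 in control samples (SD, n = 3 each). Htr1a, Htr1f, Htr3a, Htr3b, Htr5a and Htr5b were not analysed here.

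None of the 9 genes for making and storing serotonin passed by limma (3 fell with the replicate block: Pts, Qdpr and Slc18a1, at limma adjusted p-values of 0.0476, 0.0129 and 0.0386). Tryptophan hydroxylase, the first step of serotonin synthesis, was close to absent: Tph1 had 3.00 ± 2.00 normalized counts in stimulated and 1.00 ± 1.00 in control samples, and Tph2 2.00 ± 2.65 and 2.67 ± 3.06. Both were picked out after their values were seen, as was Ddc, the decarboxylase of the second step, at 25.0 ± 15.4 and 32.0 ± 13.0. The highest means belonged to genes that make or recycle the hydroxylase cofactor tetrahydrobiopterin. These were Qdpr with 866 ± 190 in stimulated and 1105 ± 206 in control samples, Spr with 832 ± 51.1 and 958.3 ± 85.2, and Pts with 538 ± 81.6 and 672 ± 27.6.

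Among 8 measured genes for other uptake and breakdown routes none passed by limma, and 1 fell with the replicate block, Aldh2 (limma adjusted p = 0.312, and 0.0457 with the block). Aldh2, an aldehyde dehydrogenase acting after monoamine oxidase, had 8215 ± 1144 in stimulated and 9483 ± 872 in control samples. Tgm2, the transglutaminase that can attach serotonin to proteins, had 6942 ± 853 and 6435 ± 223. Maob, the second monoamine oxidase gene, had 314.7 ± 17.0 and 401.3 ± 128, with a log2 change of -0.30 ± 0.23 (limma adjusted p = 0.46). Per kb of exon Maob was at 112.8 ± 6.11 in stimulated and 143.9 ± 45.8 in control samples, far under Maoa in both groups.

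Of 31 genes for G proteins and effectors, 5 rose and none fell (9 and 3 with the replicate block, 2 and 5 with equal library totals). The list's median log2 change was 0.04, beside -0.035 over all genes. Gnaq, the alpha subunit through which HTR2 receptors signal, rose to 5311 ± 285 in stimulated samples, against 2988 ± 213 in control samples (SD, n = 3 each). Its log2 change was 0.83 ± 0.09 (limma adjusted p = 0.0022), higher in all 3 pairs, and it held when any single library was left out. Gna11, the closely related subunit, picked out after its value was seen, had 3987 ± 147 and 3851 ± 433 (0.06 ± 0.10, limma adjusted p = 0.766).

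Gnai3, a Gi alpha subunit used by HTR1 receptors, rose to 8325 ± 586, against 6077 ± 486 in control samples (0.46 ± 0.09, limma adjusted p = 0.0215). Adcy5, an adenylyl cyclase that Gi inhibits, rose to 364.7 ± 47.2, against 177.3 ± 41.8 (1.05 ± 0.20, limma adjusted p = 0.0171). Gna13, a G protein alpha subunit gene, and the protein kinase gene Rock1 also rose, by 0.32 ± 0.08 (limma adjusted p = 0.0452) and 0.42 ± 0.11 (0.0498). Rock1 was named after its value was seen.

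These 4 calls were less stable than that of Gnaq. By limma, Adcy5 did not pass without stimulated replicate 1 (adjusted p = 0.0527) or 3 (0.0846) or control replicate 1 (0.0596) or 3 (0.0715). Gnai3 did not pass without stimulated replicate 2 (0.0505) or 3 (0.0959), control replicate 1 (0.0798) or 3 (0.0517), both replicate 2 libraries (0.0684) or with equal library totals (0.0602). Gna13 and Rock1 did not pass when any library but stimulated replicate 1 was left out (0.0857 to 0.157 and 0.0988 to 0.164), nor with equal library totals (0.236 and 0.15). Rock1 was also not called with a pseudocount of 0.1 (0.0526).

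Of 14 genes for receptor shut-off and partner proteins, Grk2 rose while S100a10 and Grk5 fell (5 rose and 4 fell in the paired fit, 1 and 3 with equal library totals). Grk2, a kinase that phosphorylates active receptors, reached 3134 ± 207 in stimulated samples, against 2135 ± 163 in control samples (0.55 ± 0.09, limma adjusted p = 0.0111; 0.0525 without control replicate 3). Grk5, a kinase of the same family, fell to 1262 ± 328, against 2114 ± 265 (-0.77 ± 0.19, limma adjusted p = 0.0422). That call was lost when any library but stimulated replicate 2 was left out (0.0757 to 0.137). S100a10, which encodes a protein that binds the HTR1B receptor, fell to 4084 ± 315, against 6484 ± 563 (-0.67 ± 0.10, limma adjusted p = 0.00717), and this held without any single library. So the receptor gene with the largest rise and the gene of this partner moved in opposite directions.

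**Figure D4:**
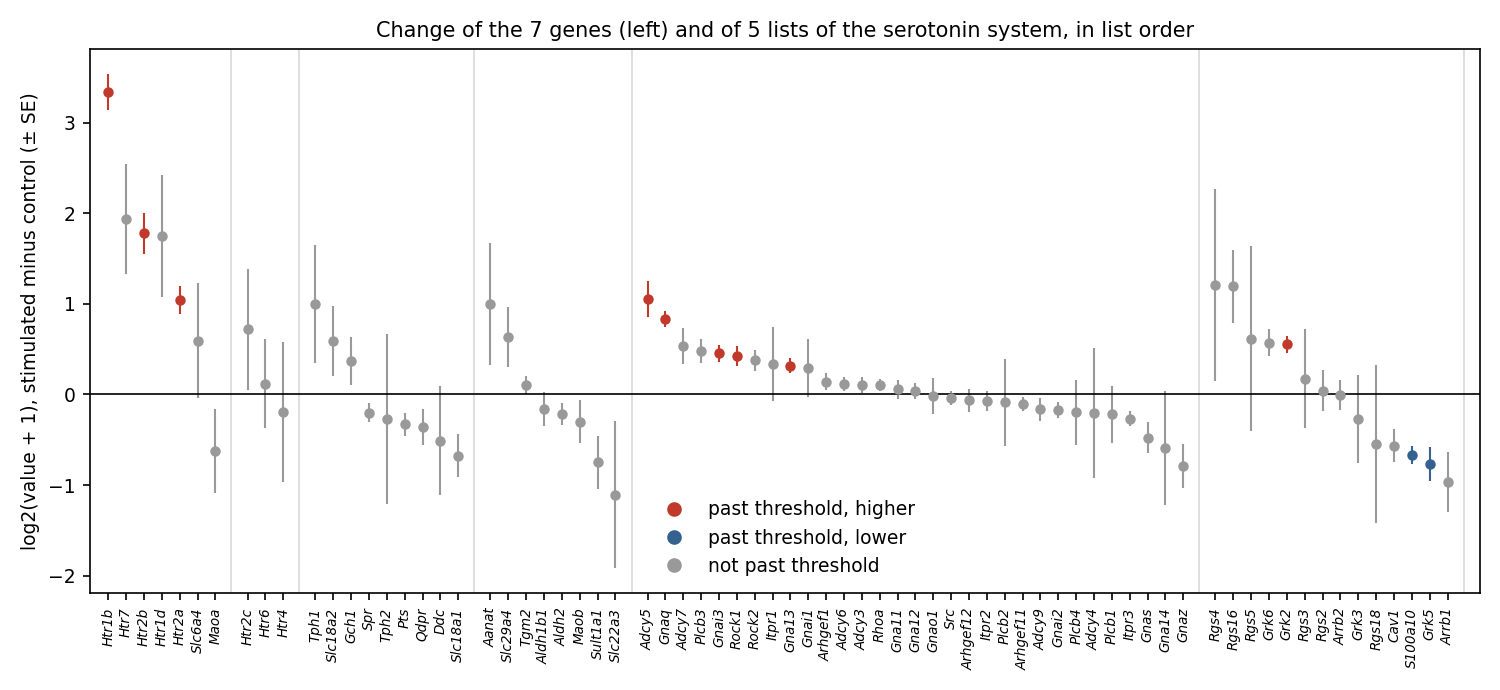
Log2(value + 1) changes, stimulated minus control, ± SE, for the 7 genes (left block) and then, between grey lines, other serotonin receptors, synthesis and storage, other uptake and breakdown, G proteins and effectors, and shut-off and partners, sorted within each block, with red for genes past the limma threshold and higher, blue for lower and grey for the rest. Htr1b stands highest at 3.34, and the changes of the coupling genes past the threshold lie between 0.32 and 1.05.

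Receptors for other vasoactive signals moved both ways. Of 15 genes for other constrictor receptors, 5 rose and 2 fell, where 8.61% of all genes rose and 4.75% fell. The median log2 change was 0.04, beside -0.035 over all genes. In the paired fit 5 rose and 4 fell, where 14.9% of all genes rose and 12% fell. Equal library totals gave 5 and 3, beside 5.22% and 10.4%. Without both libraries of replicate 1, and with no block, none rose and 1 fell, and without both of replicate 3 none passed. Among them the vasopressin receptor gene Avpr1a rose to 193 ± 60.7, against 14.7 ± 4.16 in control samples (3.62 ± 0.32, limma adjusted p = 0.00124), a log2 change close in size to that of Htr1b. The adrenergic receptor gene Adra1b rose by 2.42 ± 0.35 (limma adjusted p = 0.00719) and the purinergic receptor gene P2ry2 by 0.94 ± 0.11 (0.00355), while the endothelin receptor gene Ednrb fell by 1.42 ± 0.16 (0.00281). Of 11 genes for relaxant receptors, none rose and 1 fell, where 4.75% of all genes fell. The median log2 change of these 11 was -0.544, beside -0.035 over all genes. With the replicate block 4 fell, with equal library totals 3 and with both 7, where 12%, 10.4% and 22.6% of all genes fell. The gene that fell without these changes of fit was Vipr2, a receptor for vasoactive intestinal peptide, with 95.3 ± 37.0 in stimulated and 360.3 ± 64.4 in control samples (-1.97 ± 0.31, limma adjusted p = 0.00882). No test of the serotonin receptors against these lists was made.

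The genes most like Htr1b and Htr2b were sought by Pearson correlation of log2(value + 1) over the 6 libraries, among 12528 protein-coding genes with a mean of at least 50. Nox4, an NADPH oxidase gene, was the most like Htr1b (r = 0.9992), with 4617, 4196 and 5072 normalized counts in stimulated and 1778, 1957 and 1888 in control replicates 1 to 3. Gpsm1, a modulator of G protein signalling (0.9991), and Papss2, which makes the sulfate donor for sulfation (0.9975), followed. For Htr2b these were Shprh, a ubiquitin ligase gene (0.9981), Map3k14, a kinase of the NF-kappaB pathway (0.9962), and Akap13, a kinase anchor gene (0.9949). Their own log2 changes ranged from 0.31 for Shprh to 1.70 for Papss2, all smaller than those of the receptor they resemble. Over 6 libraries in 2 groups such values mostly reflect the group difference shared by all of them, and they are given as a description.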

How the data were processed

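Total RNA of 3 stimulated and 3 control PASMC samples was treated with DNase and sequenced with a strand-keeping kit for whole transcriptomes, per the labels. The submitters' processing notes name DESeq2 1.18.1, featureCounts 1.6.3, STAR 2.6.1d, Trimmomatic 0.38 and FastQC, as well as mm10, GRCh38 and hg38 as builds. The counting's annotation and strand setting were not given in the sources used here.

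The deposited values are a score: normalized read counts, scaled by a library factor and rounded to whole numbers by the authors, as skipped whole numbers in 4 of 6 columns show. The estimated factors, from which reads were inferred, put depth at 23.3, 28.0 and 54.4 M reads for stimulated replicates 1 to 3 and 26.4 and 27.3 M for control replicates 1 and 3. For control replicate 2 the factor could not be determined. Reads could not be recovered in full, so no count model was used.

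limma 3.58.1 in R 4.3.3 was fitted to log2(value + 1), letting the variance follow the mean level, for 21743 genes with a mean of at least 1 (42 left out), with a single term for treatment and p-values adjusted over all of them (Benjamini-Hochberg, 0.05). This fit understates fold changes of low genes. A run on simulated counts changed only genes with a mean of at least 50 and held no pairing. That run therefore tested neither low genes nor the pairing, and its outcome is not given here. Of the gene IDs, 21747 matched GENCODE M21 (mm10). Members and lists were chosen with earlier results of these data known. Of each list, up to 4 passing genes with the smallest p are named, or up to 3 with the highest mean if none passed. Promoters came from RefSeq (GRCm38.p6).

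Deviations from the group means over 13185 genes correlated by 0.747, 0.741 and 0.218 between same-numbered libraries, all over 0.1, so the numbers were taken as pairs, from the data and not the labels. The third pair is the least clear: 0.287, above its own 0.218, was found between control replicate 3 and stimulated replicate 1. Alternatives were other pseudocounts, filters and scalings, limma-voom, the replicate block and leaving out libraries.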

Additional observations from a re-analysis of the deposited data

How the results depend on the processing

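Over the 20 alternatives tried (19 for Htr7, which a minimum mean of 10 left out), none of the 7 genes changed direction. The log2 change spanned 3.13 to 3.55 for Htr1b, 0.87 to 1.19 for Htr2a, 1.53 to 2.13 for Htr2b, 0.13 to 1.22 for Slc6a4 and -1.04 to -0.20 for Maoa. Htr2a and Htr2b lost their calls without both libraries of replicate 1 or of replicate 3, and Htr1b without both of replicate 3, fits with 2 libraries a group. Of the 7 genes, 0 to 4 passed when libraries were left out, against 3 with all libraries. Over all genes 2905 passed with all libraries, 0 to 2398 when libraries were left out, 5837 with the replicate block and 6958 with equal library totals and the block. The count of 0, by limma without both libraries of replicate 3, stood beside 3230 genes at an unadjusted p under 0.05, and no other tool was run on those libraries. Of the 65 genes (64 with equal totals) in the 5 serotonin system lists, 8 passed with all libraries, 0 to 10 when libraries were left out, 25 with the replicate block and 28 with equal totals and the block. The cause of these differences was not tested. Htr7, Htr1d and Slc6a4 rest on few reads, which limits what their values can show. The block changed the call of Maoa and of no other of the 7 genes.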
